A study of Arabidopsis thaliana with 59 samples.

Results

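The ski2-2 single mutant of Arabidopsis thaliana was set against the wild type Col-0 by the amount of 22-nt small RNA that each gene gave. A gene was included when the authors' mean was at least 5 units in ski2-2 or in Col-0, which held for 5095 of the 32375 genes with a value. Of these, 3862 genes reached 5 units in both genotypes. The ski2-2 plants, mutant in SKI2 and studied through this single allele, were compared with wild-type Col-0 plants, with 4 libraries of each genotype. All plants were untreated and 20 days old, grown for 6 days on MS plates and 14 more in soil, and RNA came from whole aerial parts. The double mutant ski2-2 dcl2-1 and the single mutants ein5-1, dcl4-2 and dcl2-1, each with 4 libraries, serve below as further reference points among the 15 genotypes of the study. They share the growth conditions and the tissue. So does another double mutant, ski2-2 dcl4-2, also with 4 libraries. Its deposited folds are used below for the 173 included genes whose values per library could not be worked out in both genotypes. A few sums are also given for other genotypes.

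SKI2 is an RNA helicase of the Ski complex, which feeds cytoplasmic mRNA into the exosome for decay from the 3′ end, while EIN5 (XRN4) is an exoribonuclease that works from the 5′ end. Where decay is impaired, RNA-dependent RNA polymerase can copy plant transcripts into double-stranded RNA, and the Dicer-like enzymes DCL4 and DCL2 cut it into 21-nt and 22-nt siRNAs. A small RNA read over a gene therefore reports a small RNA cut from that gene's RNA or a fragment of it, and it is not a measure of its mRNA level. MicroRNAs are made by another Dicer-like enzyme, DCL1, and guide cleavage of mRNAs of matching sequence, and the cleaved fragments are also substrates of the Ski complex and the exosome.

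A unit is the authors' scaled value per gene, headed TPM in the deposited file, although the means add up to only 182056 units in ski2-2 and 181889 in Col-0. Reads per library were recovered from these means and ranged from 81739 to 93554 in ski2-2 and from 92388 to 115304 in Col-0. One read was worth 1.03 to 1.21 units in a ski2-2 library and 0.813 to 1.04 units in a Col-0 library, so a gene at 5 units rests on a handful of reads per library. Annotated microRNA loci summed to 26379 units in ski2-2 and 27690 in Col-0. The SKI2 gene itself had authors' means of 0.804 units in ski2-2 and 0.902 in Col-0, and small RNA at this level does not check the genotype. The 8 floral markers reached at most 1.09 units in ski2-2 and 0.236 in Col-0. The 4 root markers reached at most 4.20 and 2.36 units in the same order. Because small RNA over a gene is not its mRNA level, these values do not check the tissue. Aerial parts are a mixture of tissues, so fewer cells of a type and less small RNA per cell cannot be told apart.

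Loss of SKI2 alone moved the 22-nt RNA of a small share of genes, and it moved them both up and down. Library values were recovered for 4922 of the 5095 members, and all of these passed the filter of a mean of 1 unit and were tested with limma on log2(units + 1). At an adjusted p below 0.05, 106 members rose (2.15%) and 89 fell (1.81%), beside 0.893% higher and 0.776% lower among all 11980 genes tested. Without adjustment 5.46% of all tested genes were higher and 5.03% lower at p below 0.05. The median log2 fold was 0.026 over the tested members and 0.019 over all genes tested, and the log2 means of the members correlated across genes with r = 0.903 between the genotypes. Among the called members, 86 of the 106 higher and 71 of the 89 lower genes had libraries that did not overlap between the genotypes, a state found for 3.8% of all tested genes in the higher and 2.7% in the lower direction. The rule that names genes, with a log2 fold of 1 or more in size and no overlap of libraries, left 70 higher and 50 lower members, and 1.04% of all tested genes met it. These calls lean on limma's use of the spread of genes of similar level: without that intensity trend 5 members rose and 3 fell, and GBSS1, HSP70, AT3G22955, CRF2, MIR845b, EXPA8 and PAB4 are the genes named here that kept their call. With values scaled to microRNA loci 66 members rose, and without Col-0 A, B or C the number that fell was 54 or 55. This scaling used the sum of the 153 microRNA loci with recovered libraries, which leaves out those of highest level. The 39 tested members among these loci summed to 925 units in ski2-2, where all annotated microRNA loci summed to 26379.

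**Figure D1:**
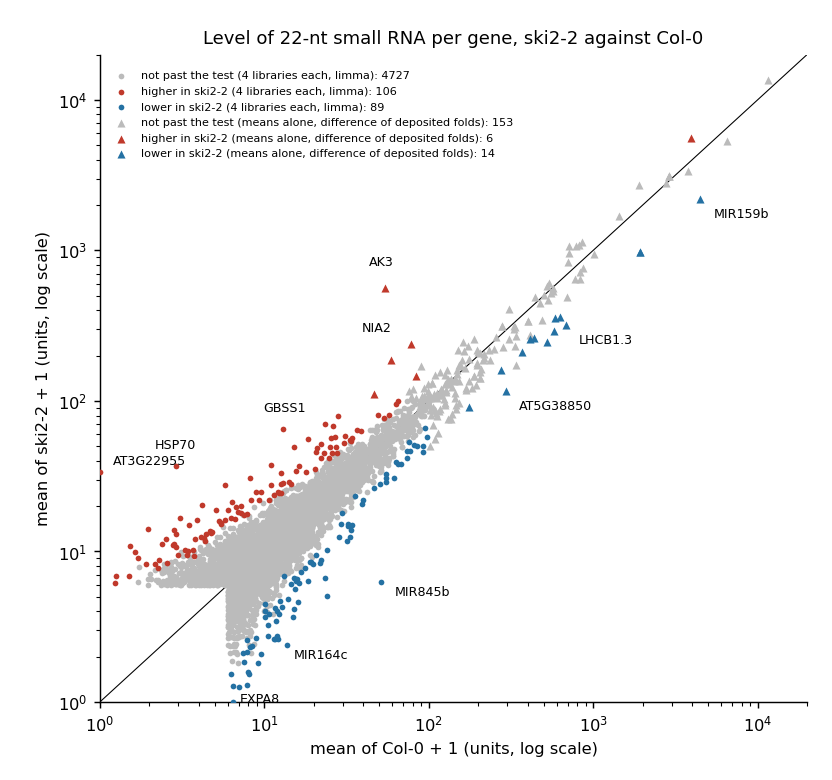
Authors' mean plus 1 unit of each of the 5095 members in ski2-2 (vertical, log scale) and Col-0 (horizontal, log scale). Circles are the 4922 members with recovered libraries, of which 106 rose and 89 fell, triangles are the 173 members with means alone, of which 6 rose and 14 fell, and the line marks equal means.

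By size alone, 246 members (4.83%) had a fold of (ski2-2 + 1) over (Col-0 + 1) of 2 or more and 177 (3.47%) one of 0.5 or less, against 3.29% and 2.52% of all genes with a value. Of these, 150 and 115 stayed below 10 units in both genotypes, where few reads carry the fold. Only 82 of the 246 and 65 of the 177 passed the test. At the edge of the choice, SPI stood just inside with authors' means of 3.31 units in ski2-2 and 5.0 in Col-0, and PAM68 just outside with 2.46 and 5.0 units in the same order.

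The remaining 173 members have means above about 100 units in at least one genotype and hold 47.3% of all units in ski2-2 and 48.7% in Col-0. For these, the log2 fold of ski2-2 over Col-0 was taken as the difference between 2 folds in the authors' deposited table, ski2-2 dcl4-2 over Col-0 and ski2-2 dcl4-2 over ski2-2, with a bound on its standard error from the deposited p-values. In this way 6 members rose and 14 fell at a bounded adjusted p below 0.05, beside 0.0772% higher and 0.0681% lower among 22014 genes. The bound is wide: all 12 genes it called that also have recovered libraries were limma calls in the same direction, while LURP1, at a limma adjusted p of 3.1e-10, had a bounded adjusted p of 0.15.

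Among the members with means alone the largest fold was that of AK3, which encodes an aspartate kinase, the first enzyme of the pathway to lysine, threonine and methionine. AK3 had an authors' mean of 561 units in ski2-2 and 53.4 units in Col-0, where its 4 libraries ran from 35.8 to 67.0. The difference of folds in the authors' deposited table was 3.36 on the log2 scale (standard error at most 0.32, bounded adjusted p = 1.3e-21). AK3 stood at 302 units in ski2-2 dcl2-1 and 23.2 in dcl2-1, and at 293 units in ein5-1, by the authors' means, so it was high in ski2-2, ski2-2 dcl2-1 and ein5-1. CARAB-AK-LYS, a related aspartate kinase gene whose reads may be shared with AK3, had 11.3, 25.2, 30.8 and 16.9 units in ski2-2 and 8.95, 4.71, 11.3 and 8.31 in Col-0. Its log2 fold was 1.2 ± 0.33 (SE, limma adjusted p = 0.021), lost without ski2-2 B or C or Col-0 B (adjusted p up to 0.2), and in ski2-2 dcl2-1 against dcl2-1 it was 1.49 ± 0.34 (limma adjusted p = 0.0066).

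Both nitrate reductase genes, the first step of nitrate assimilation, rose in ski2-2. NIA1 had authors' means of 187 units in ski2-2 and 57.9 in Col-0, and NIA2 of 239 and 77.2 units. The differences of folds in the authors' deposited table were 1.66 for NIA1 and 1.6 for NIA2 (bounded adjusted p = 0.038 and 0.027). NIA1 and NIA2 are close copies, so the division of their reads is uncertain. Their 4 Col-0 libraries ran only from 54.3 to 60.3 units for NIA1 and from 71.6 to 85.0 for NIA2. NIR1, the nitrite reductase that takes the next step, had 8.22, 21.9, 28.5 and 22.9 units in ski2-2 and 4.07, 0, 8.19 and 9.35 in Col-0, with 1 ski2-2 library inside the Col-0 range. Its log2 fold was 2.07 ± 0.38 (SE, limma adjusted p = 3.4e-05). GLT1, a glutamate synthase at the end of the pathway, went the other way, with 11.3, 9.84, 0 and 2.41 units in ski2-2 and 16.3, 9.43, 11.3 and 11.4 in Col-0 (log2 fold -1.48 ± 0.42, limma adjusted p = 0.034). That call was lost without ski2-2 C or D or any 1 Col-0 library (adjusted p up to 0.49). GLU1, another glutamate synthase gene, has means alone and leaned up. Its authors' means were 115 units in ski2-2 and 74.5 in Col-0, a difference of 0.60 in the authors' deposited table that did not pass the bound. Of 8 tested genes for nitrogen uptake and assimilation, NIR1 rose and GLT1 fell, with a median log2 fold of 0.21, and GLN2, the plastid glutamine synthetase, had 67.2 to 84.5 units in ski2-2 and 48.0 to 59.2 in Col-0 at a limma adjusted p of 0.18.

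Starch and inositol genes followed. GBSS1, the starch synthase that makes amylose, had 57.5, 66.7, 63.8 and 68.8 units in ski2-2 and 11.4, 13.2, 17.4 and 6.23 in Col-0, every mutant library standing far above every wild-type one. The log2 fold of GBSS1 was 2.40 ± 0.23 (SE, limma adjusted p = 7e-21). MIPS1 and MIPS2, the inositol phosphate synthases at the start of inositol synthesis, rose together. MIPS1 gave 89.4, 93, 54.7 and 77.3 units in ski2-2 and 24.4, 33.0, 25.6 and 24.9 in Col-0 (log2 fold 1.49 ± 0.19, limma adjusted p = 2e-12). MIPS2 gave 33.9, 31.7, 21.6 and 32.6 units in ski2-2 and 8.95, 6.60, 6.14 and 7.27 in Col-0 (log2 fold 1.9 ± 0.31, limma adjusted p = 5.5e-07). VTC2, the enzyme that commits GDP-galactose to vitamin C, averaged 56.3 ± 9.93 units in ski2-2 and 26.1 ± 3.58 in Col-0 (SD, n = 4 each), a log2 fold of 1.07 (limma adjusted p = 4.7e-05). RHM1, which makes UDP-rhamnose for flavonol glycosides and pectin, averaged 44.9 ± 8.32 units in ski2-2 and 19.8 ± 8.82 in Col-0 (SD, n = 4 each), a log2 fold of 1.25 (limma adjusted p = 2.9e-05). RHM1 overlaps TPS1, which had authors' means of 1.42 units in ski2-2 and 2.20 in Col-0.

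**Figure D2:**
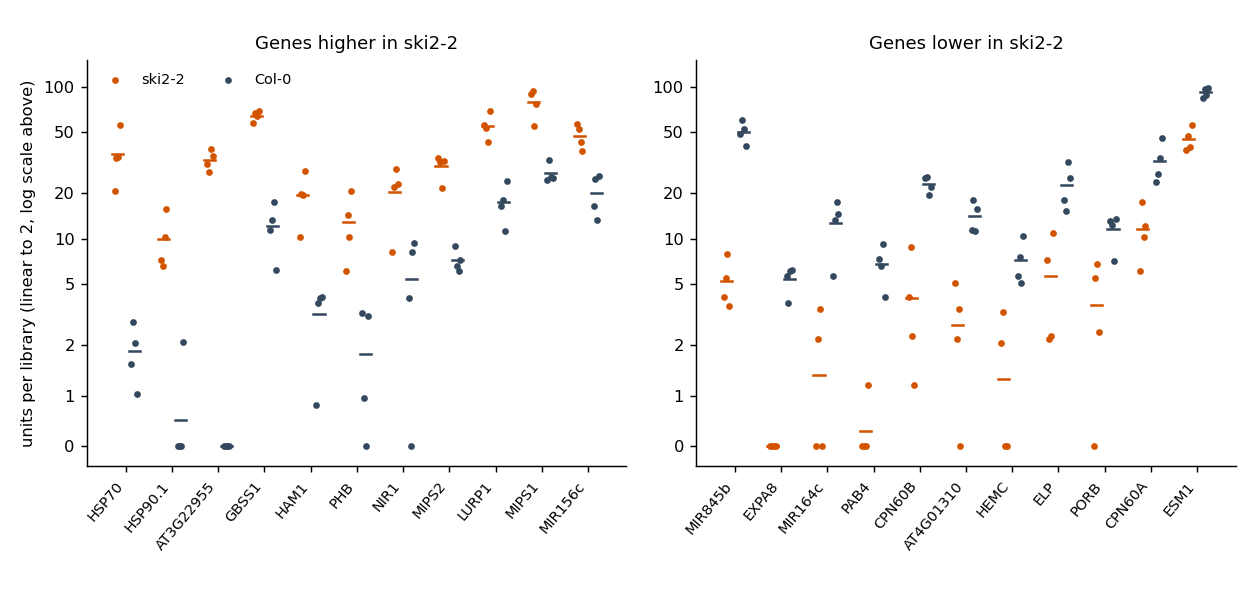
Units in each of the 4 libraries of ski2-2 (left of each pair) and Col-0 for genes that rose (left panel) and fell (right panel) in ski2-2, with bars at the mean of 4 libraries. The vertical axis is linear up to 2 units and logarithmic above, and in all genes shown but NIR1 no library of one genotype reaches into the range of the other.

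Cytosolic chaperones were among the higher genes. Of 19 tested members whose RefSeq product names a heat shock protein, a group chosen after the values were seen, 6 rose and 1 fell, and HSC70-1 rose by the bound. The summed level of the 19 genes was 424, 430, 471 and 494 units in the ski2-2 libraries and 245, 293, 257 and 267 in the Col-0 libraries, although their median log2 fold was only 0.31, so a few genes carried the sum. Without the intensity trend 1 of them rose and none fell. HSP70, the stress-induced chaperone gene, had 20.5, 33.9, 34.2 and 55.5 units in ski2-2 and 1.63, 2.83, 2.05 and 1.04 in Col-0. HSP70's log2 fold of 3.64 ± 0.38 (SE, limma adjusted p = 2.2e-18) was the highest limma fold among tested members with reads in both genotypes. HSP90.1, the heat-induced HSP90, had 7.19, 6.56, 10.3 and 15.7 units in ski2-2 and 0, 0, 0 and 2.08 in Col-0 (log2 fold 2.97 ± 0.56, limma adjusted p = 5.1e-05). The constitutive relatives rose by less, with log2 folds of 1.56 for AT3G09440, an HSP70 cognate, and of 1.38 for HSP81-3, 1.42 for Hsp81.4 and 1.15 for HSP81-2, all HSP90 genes (limma adjusted p from 9.7e-12 to 9.4e-05). HSP81-2, HSP81-3 and Hsp81.4 are close copies, so how their reads were divided is uncertain. HSC70-1 had authors' means of 145 units in ski2-2 and 83 in Col-0 (difference 0.79 in the authors' deposited table, bounded adjusted p = 0.034). The gene that fell was cpHsc70-1, the plastid HSP70, with 5.14 to 14.8 units in ski2-2 and 10.2 to 29.1 in Col-0 (log2 fold -1.14, limma adjusted p = 0.044), a call lost without ski2-2 A or B or Col-0 A, B or D (adjusted p up to 0.34).

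Genes of the phenylpropanoid and flavonoid pathway, which leads from phenylalanine to flavonols and anthocyanins, were also among those that rose. Of 20 enzymes on a list written after the values were seen, 16 were tested and 8 of them rose, and CHS rose by the bound. The median log2 fold was 1.19, and 15 of the 16 were above 0. Their summed level was 170, 220, 205 and 202 units in the ski2-2 libraries and 61.8, 97.1, 87.0 and 87.3 in the Col-0 libraries. PAL1, the entry enzyme, had 19.5, 43.8, 50.1 and 30.2 units in ski2-2 and 15.5, 18.9, 10.2 and 16.6 in Col-0 (log2 fold 1.12 ± 0.26, limma adjusted p = 0.002). C4H, the hydroxylase that follows, had 23.6, 31.7, 30.8 and 24.1 units in ski2-2 and 6.51, 8.49, 14.3 and 18.7 in Col-0 (log2 fold 1.23 ± 0.29, limma adjusted p = 0.0028). CHS, the chalcone synthase that opens the flavonoid branch, had authors' means of 110 units in ski2-2 and 45.4 in Col-0 (difference 1.24 in the authors' deposited table, bounded adjusted p = 9.4e-05).

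Further down the branch the levels were lower and the folds larger. CHIL, a chalcone isomerase-like partner of CHS, averaged 9.65 ± 3.88 units in ski2-2 and 1.92 ± 2.23 in Col-0 (SD, n = 4 each), with a log2 fold of 2.09 (limma adjusted p = 0.0047). TT7, the flavonoid 3′-hydroxylase, averaged 7.84 ± 4.73 units in ski2-2 and 1.3 ± 2.60 in Col-0 (SD, n = 4 each), where only 1 library had reads, with a log2 fold of 2.32 (limma adjusted p = 0.0058). LDOX, the anthocyanidin synthase, had a log2 fold of 1.79 (limma adjusted p = 0.0025), and GSTF12, which carries anthocyanin to the vacuole, one of 2.5 (limma adjusted p = 0.00067). The glycosyltransferase genes UGT78D2 and AT4G14090 had log2 folds of 1.66 and 2.34 (limma adjusted p = 0.02 and 0.0045). DFR and CHI, between them in the pathway, had 5.14 to 13.1 and 1.09 to 7.24 units in ski2-2 and 3.25 to 7.54 and 0.813 to 5.12 in Col-0, and did not pass (limma adjusted p = 0.48 and 0.87). Leaving out 1 library ended the call of PAL1 (ski2-2 C), C4H (Col-0 A), CHIL (ski2-2 A, Col-0 D), TT7 (ski2-2 A, D), LDOX (Col-0 B) and UGT78D2 (ski2-2 B, D, Col-0 A, D), with adjusted p up to 0.19. The number of enzymes that rose was 4 with a pseudocount of 0.1 and 0 without the intensity trend. On the narrower list of 12 anthocyanin genes, LDOX and CHS were the genes that rose, of 5 tested by limma, 3 of them members, and 1 with means alone.

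Other genes that rose have varied roles. LURP1, a gene induced in pathogen response, had 55.5, 53.6, 43.3 and 68.8 units in ski2-2 and 16.3, 17.9, 11.3 and 23.9 in Col-0 (log2 fold 1.64 ± 0.22, limma adjusted p = 3.1e-10). ACD6, an ankyrin protein that promotes salicylic acid defence, had 34.9, 37.2, 35.3 and 38.6 units in ski2-2 and 7.32, 5.66, 10.2 and 16.6 in Col-0 (log2 fold 1.87 ± 0.28, limma adjusted p = 2e-08). GAMMA-VPE, a vacuolar processing protease, averaged 48.5 ± 5.48 units in ski2-2 and 14.1 ± 4.92 in Col-0 (SD, n = 4 each), a log2 fold of 1.77 (limma adjusted p = 3.8e-10), and its overlapping gene AT4G32930 had authors' means of 1.15 and 0.715 units in the same order. AT2G45380, annotated as a myeloid leukemia factor, and AT1G31163, an F-box associated protein gene, had log2 folds of 1.22 and 1.0 (limma adjusted p = 2e-05 and 0.00066). The pseudogene AT3G22955 had 30.8, 27.3, 38.7 and 35.0 units in ski2-2 and no read in any of the 4 Col-0 libraries. Against 3 reads over the whole Col-0 group (0.716 units), AT3G22955 was at least 46.1-fold higher in ski2-2, and it stood at 21.2 units in dcl4-2 and at 0 in ski2-2 dcl2-1 and in dcl2-1.

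Targets of conserved microRNAs tended to give more 22-nt RNA in ski2-2. Over 11 lists with 79 target genes, 40 genes were tested, 6 rose and 28 had a log2 fold above 0, with a median of 0.44 beside 0.026 for tested members and 0.019 for all tested genes. Below 0.05 without adjustment were 9 higher and 2 lower targets. The sites in the mRNAs of 4 of the genes that rose are shown with their microRNAs because they are where the mRNA is cut. In the microRNAs capitals mark the seed, bases 2 to 8, and in the sites they mark bases that pair with the microRNA without wobble. All are from RefSeq on TAIR10.1, 5′ to 3′.
miR166a-3p: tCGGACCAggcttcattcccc
PHB site: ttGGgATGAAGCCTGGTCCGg
miR171a-3p: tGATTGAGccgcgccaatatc
HAM1 site: GATATTGGCGCGGCTCAATCA
miR167a-5p: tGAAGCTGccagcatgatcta
ARF6 site: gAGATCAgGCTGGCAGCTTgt
miR168a-5p: tCGCTTGGtgcaggtcgggaa
AGO1 site: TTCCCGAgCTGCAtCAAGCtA
The HAM1 site paired at every base, the AGO1 site had 3 bases outside perfect pairing, and the PHB and ARF6 sites had 4 each.

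PHB, a class III homeodomain gene that sets the upper side of leaves and a target of miR166, had 6.16, 14.2, 10.3 and 20.5 units in ski2-2 and 3.25, 0.943, 0 and 3.12 in Col-0 (log2 fold 2.40 ± 0.48, limma adjusted p = 0.00022). HAM1, a GRAS gene of the meristem and a target of miR171, had 10.3, 19.7, 19.4 and 27.8 units in ski2-2 and 0.813, 3.77, 4.1 and 4.16 in Col-0 (log2 fold 2.31 ± 0.40, limma adjusted p = 7.2e-06). In both genes the libraries of the genotypes were fully apart. The auxin response factors ARF6 and ARF2, targets of miR167 and of TAS3 siRNAs, averaged 7.22 ± 1.25 and 23.9 ± 9.41 units in ski2-2 and 1.18 ± 0.888 and 11.1 ± 5.21 in Col-0 (SD, n = 4 each), with log2 folds of 2.02 and 1.06 (limma adjusted p = 0.018 and 0.034). AGO1, the effector of most plant microRNAs and itself a target of miR168, had 27.7, 30.6, 14.8 and 18.1 units in ski2-2 and 7.32, 8.49, 14.3 and 11.4 in Col-0 (log2 fold 1.05 ± 0.31, limma adjusted p = 0.042). PHO2, the miR399 target that restrains phosphate uptake, had 10.9 to 25.4 units in ski2-2 and 4.07 to 11.4 in Col-0 (log2 fold 1.24, limma adjusted p = 0.043). The calls of ARF6 (without ski2-2 A, ski2-2 B or Col-0 B), ARF2 (ski2-2 A, D, Col-0 B, C, D), AGO1 (ski2-2 A, B, Col-0 A, B, D) and PHO2 (ski2-2 A, C, D, Col-0 A, B, C) ended when 1 of the libraries in parentheses was left out, with adjusted p up to 0.3. ARF2, AGO1 and PHO2 also lost their calls with values scaled to microRNA loci. The number of targets called was 2 with a pseudocount of 0.1, 3 with that scaling and 0 without the intensity trend.

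REV, a second miR166 target, had 4.11 to 13.3 units in ski2-2 and 0.943 to 2.44 in Col-0, apart but not past the test (log2 fold 1.52, limma adjusted p = 0.12). The receptors of auxin aimed at by miR393 had a median log2 fold of -0.81 over 3 tested genes, of which 2 were lower without adjustment and none passed with it. Lists of targets of miR156, of miR159 and miR319, of miR169 and of miR172 held no gene past the test among 12 tested, of which 1 was higher without adjustment. No target of miR164 reached the filter.

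MicroRNA loci moved in both directions. Of 64 members annotated as microRNA loci, 39 were tested, 3 rose and 3 fell, and 2 of the 25 without recovered libraries fell by the bound. The number that fell was 7 with quantile normalization, 6 without ski2-2 A, 5 without ski2-2 C and 5 of the 33 tested with all recovered genotypes in 1 fit. The number that rose was 2 without ski2-2 B, C or D or Col-0 C or D, and 1 with microRNA scaling or a pseudocount of 0.1. Without the intensity trend none rose and 1 fell. Their mature sequences are shown because the length decides whether a mature microRNA can be counted as a 22-nt read at all: of 31 mature sequences looked up, 25 have 21 bases and 4 have 22. Capitals mark the seed, and the sequences are from RefSeq on TAIR10.1.
miR845b: tCGCTCTGataccaaattgatg
miR829-3p.1: aGCTCTGAtaccaaatgatggaat
miR164c-5p: tGGAGAAGcagggcacgtgcg
miR159b-3p: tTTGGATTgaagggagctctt
miR396a-5p: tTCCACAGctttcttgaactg
miR156c-3p: gCTCACTGctctatctgtcaga
miR400: tATGAGAGtattataagtcac
miR845b has 22 bases and shares a run of 15 bases, gctctgataccaaat, with miR829-3p.1, shifted by 1 position. None of the 7 shares its seed with another.

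MIR845b gave the lowest fold of the recovered members with reads in ski2-2. The locus had 4.11, 5.47, 7.98 and 3.62 units in ski2-2 and 48.8, 60.3, 52.2 and 40.5 in Col-0, a log2 fold of -3.07 ± 0.29 (SE, limma adjusted p = 7e-22). MiR845 is known in Arabidopsis pollen, where it aims at primer binding sites of retrotransposons. MIR829, whose product carries the shared run, had 0, 0, 1.14 and 0 units in ski2-2 and 5.69, 2.83, 5.12 and 8.31 in Col-0 (log2 fold -2.35 ± 0.61, limma adjusted p = 0.011, lost without Col-0 A or D at adjusted p up to 0.1). MIR164c, of the family that limits CUC boundary genes, had 0, 2.19, 3.42 and 0 units in ski2-2 and 5.69, 13.2, 17.4 and 14.5 in Col-0 (log2 fold -2.73 ± 0.50, limma adjusted p = 2.9e-05). MIR159b, a regulator of GAMYB genes, had authors' means of 2196 units in ski2-2 and 4487 in Col-0 (difference -1.05 in the authors' deposited table, bounded adjusted p = 3.7e-07). MIR396a, whose targets are growth-regulating factors, had authors' means of 211 units in ski2-2 and 369 in Col-0 (difference -0.82 in the authors' deposited table, bounded adjusted p = 0.0058). For MIR164c, MIR159b and MIR396a the mature sequences above have 21 bases, so the 22-nt reads at these loci are not the annotated molecule as printed. The same holds for MIR829, whose annotated mature sequences have 24 or 21 bases.

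MIR156c, of the family that holds plants in the juvenile phase, had 56.5, 52.5, 43.3 and 37.4 units in ski2-2 and 16.3, 24.5, 13.3 and 26.0 in Col-0 (log2 fold 1.24 ± 0.22, limma adjusted p = 2e-05). Of its annotated mature sequences, miR156c-3p has 22 bases and miR156c-5p has 20, so miR156c-5p as annotated cannot be a 22-nt read. MIR400, known for targets among pentatricopeptide repeat genes, had 70.6 to 139 units in ski2-2 and 52.2 to 77.3 in Col-0 (log2 fold 0.58, limma adjusted p = 0.0064), and MIR861 4.83 to 11.3 and 0 to 5.12 units in the same order (log2 fold 1.71, limma adjusted p = 0.043). Both calls depended on single libraries, MIR400 on ski2-2 D and Col-0 C (adjusted p up to 0.25) and MIR861 on ski2-2 A, B or C and Col-0 A or D (adjusted p up to 0.32), and both were lost when values were scaled to microRNA loci. The annotated mature sequences of MIR400 and MIR861 have 21 bases, so their 22-nt reads are not those molecules as annotated.

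**Figure D3:**
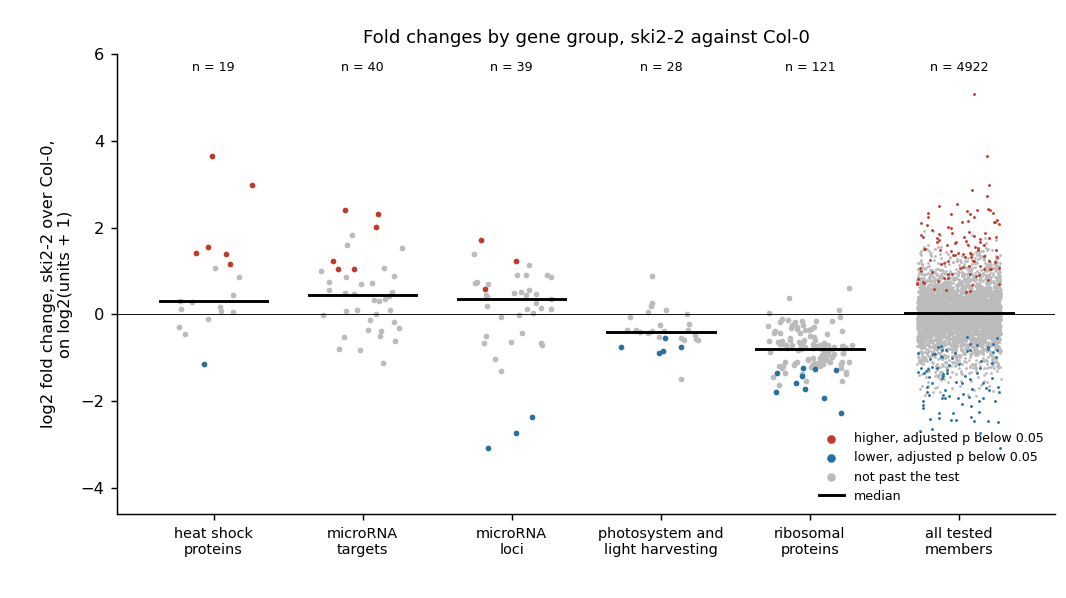
Log2 fold of ski2-2 over Col-0 on log2(units + 1) for each tested gene of 5 groups and for all 4922 tested members, with a line at the median. Heat shock, microRNA target and microRNA locus medians lie above 0 (0.31, 0.44 and 0.34), photosystem and ribosomal protein medians below it (-0.40 and -0.79), and the median of all members at 0.026.

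Several nuclear genes of the photosynthetic apparatus fell. Of 25 such genes on a list, 21 lacked recovered libraries, and 6 of those fell by the bound, with a median difference of -0.61 over the 21. Of the 4 tested by limma none passed, and 3 were lower without adjustment. They were LHCB1.1, LHCB1.2 and LHCB1.3 of the light-harvesting antenna and RBCS1A, RBCS1B and RBCS3B of Rubisco's small subunit. The authors' means were 319 units in ski2-2 and 680 in Col-0 for LHCB1.3, 246 and 523 for LHCB1.2, and 291 and 575 for LHCB1.1, with differences from -1.11 to -1.0 in the authors' deposited table (bounded adjusted p from 4.6e-13 to 3.2e-09). RBCS1A had authors' means of 262 units in ski2-2 and 435 in Col-0 (difference -0.75 in the authors' deposited table, bounded adjusted p = 6e-06). The LHCB1 genes are close copies of each other, as are RBCS1B and RBCS3B, so these are not 6 independent results. LHCB1.3 overlaps NRPA2, which had 2.25 units in ski2-2 and 1.26 in Col-0 by the authors' means.

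The same direction was seen among photosystem genes with recovered libraries. Of 28 tested members whose product names a photosystem or a light-harvesting protein, a group chosen after the values were seen, 5 fell, none rose and 1 was higher without adjustment, with a median log2 fold of -0.40. Their summed level was 773, 849, 771 and 858 units in ski2-2 and 1051, 1134, 1090 and 1211 in Col-0, with no overlap. PSAO, a subunit of photosystem I, had 58.5, 42.7, 54.7 and 41.1 units in ski2-2 and 88.6, 83, 91.1 and 101 in Col-0 (log2 fold -0.88 ± 0.15, limma adjusted p = 8e-06). PSBX of photosystem II had a log2 fold of -0.76, PSAG of photosystem I one of -0.85 and PSAH2 one of -0.75 (limma adjusted p = 0.0004, 0.0026 and 0.012). PSAH2 lost its call without ski2-2 A, ski2-2 C, Col-0 B or Col-0 D, at adjusted p up to 0.18. The number of photosystem genes that fell was 3 without Col-0 B or D, 3 with a pseudocount of 0.1, 3 of the 24 tested with all recovered genotypes in 1 fit and 0 without the intensity trend.

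Some enzymes of chlorophyll synthesis were lower as well. PORB, the light-dependent protochlorophyllide reductase, had 0, 5.47, 6.84 and 2.41 units in ski2-2 and 13, 12.3, 7.17 and 13.5 in Col-0 (log2 fold -1.75 ± 0.45, limma adjusted p = 0.01). HEMC, an early porphyrin enzyme, had 2.05, 3.28, 0 and 0 units in ski2-2 and 5.69, 7.54, 5.12 and 10.4 in Col-0 (log2 fold -2.06 ± 0.55, limma adjusted p = 0.017). CRD1, a subunit of the cyclase that closes the chlorophyll ring, had a log2 fold of -0.68 (limma adjusted p = 0.0057). These 3 fell of 4 tested members in a group taken by RefSeq product and chosen after the values were seen. The group's 1 member with means alone did not pass the bound. The calls were lost without ski2-2 A or Col-0 A, B or D for PORB (adjusted p up to 0.23), without ski2-2 C or D or Col-0 A, B or D for HEMC (up to 0.12) and without Col-0 B for CRD1 (0.12). None of the 3 was called without the intensity trend, and 1 with a pseudocount of 0.1.

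Genes of the plastid chaperonin and of a plastid RNA-binding protein fell too. CPN60B, a subunit of the chaperonin that folds Rubisco, had 4.11, 8.75, 2.28 and 1.21 units in ski2-2 and 25.2, 25.5, 19.5 and 21.8 in Col-0 (log2 fold -2.45 ± 0.37, limma adjusted p = 5.3e-08). CPN60A, its partner, had 6.16, 17.5, 10.3 and 12.1 units in ski2-2 and 23.6, 26.4, 33.8 and 45.7 in Col-0 (log2 fold -1.45 ± 0.28, limma adjusted p = 8.2e-05). RBP31, a plastid RNA-binding protein gene, averaged 10.8 ± 4.56 units in ski2-2 and 31.0 ± 8.59 in Col-0 (SD, n = 4 each), a log2 fold of -1.47 (limma adjusted p = 0.0001). FBA5, an aldolase, had a log2 fold of -1.89, and AT3G52960, of the thioredoxin superfamily, one of -1.74 (limma adjusted p = 0.00079 and 0.00086). The overlapping gene of CPN60B, ZKT, had authors' means of 7.49 units in ski2-2 and 6.81 in Col-0, and that of FBA5, FBA7, 0.604 and 1.98 units.

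Of 59 tested genes of the chloroplast genome 2 fell, with a median log2 fold of -0.18, and 14 were lower and 2 higher without adjustment. Their summed level was 1800, 1993, 1715 and 1916 units in the ski2-2 libraries and 1992, 2097, 2079 and 2164 in the Col-0 libraries, where 1 mutant sum just reached into the wild-type range. The number that fell was 5 without ski2-2 B, 1 without ski2-2 A or Col-0 A, C or D, 1 with microRNA scaling and 0 without the intensity trend. Of 23 chloroplast genes without recovered libraries 1 rose and 2 fell by the bound. The gene that rose was ATCG00020, with authors' means of 5575 units in ski2-2 and 3951 in Col-0 (difference 0.48 in the authors' deposited table, bounded adjusted p = 0.0053). ATCG01270 and ATCG00870 carry identical values, 972 units in ski2-2 and 1928 in Col-0 by the authors' means, and count as 1 result (difference -1.01 in the authors' deposited table, bounded adjusted p = 0.0019).

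Most ribosomal protein genes had lower values in ski2-2, although few passed the test. Of 121 tested members whose product names a ribosomal protein, a group chosen after the values were seen, 10 fell and none rose, 57 were lower and none higher without adjustment, and the median log2 fold was -0.79 with 4 genes above 0. The summed level was 678, 689, 653 and 765 units in the ski2-2 libraries and 1210, 1207, 1140 and 1221 in the Col-0 libraries, so that all 4 mutant sums lay below all wild-type sums. AT4G01310, of the L5 family, had 5.14, 2.19, 3.42 and 0 units in ski2-2 and 11.4, 17.9, 11.3 and 15.6 in Col-0 (log2 fold -2.28 ± 0.45, limma adjusted p = 0.00013), and its overlapping gene AT4G01290 had authors' means of 4.30 and 3.88 units in the same order. The plastid ribosomal genes RPL21C and RPL27 had log2 folds of -1.59 and -1.23 (limma adjusted p = 0.027 and 0.043), calls that ended without ski2-2 B or any 1 Col-0 library for RPL21C (adjusted p up to 0.14) and without ski2-2 A, B or C or Col-0 B, C or D for RPL27 (up to 0.24). The number of ribosomal protein genes that fell was 2 with a pseudocount of 0.1, 2 without Col-0 B or C, 3 without Col-0 D, 5 without Col-0 A and 11 with quantile normalization, and none was called without the intensity trend.

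Other genes that fell have varied roles. ESM1, a protein that directs glucosinolate breakdown, had 38.0, 47.0, 39.9 and 55.5 units in ski2-2 and 83.8, 96.2, 88.1 and 97.7 in Col-0 (log2 fold -1.02 ± 0.16, limma adjusted p = 1e-07). ELP, an extensin-like gene, had 7.19, 2.19, 2.28 and 10.9 units in ski2-2 and 17.9, 15.1, 31.7 and 24.9 in Col-0 (log2 fold -2.0 ± 0.36, limma adjusted p = 1.5e-05). AT2G45180, a lipid-transfer type protein gene, and PME3, a pectin methylesterase, had log2 folds of -1.35 and -1.24 (limma adjusted p = 0.0002 and 0.025). The uncharacterized genes AT3G23450, AT3G32896 and AT2G01023 had log2 folds of -1.23, -1.36 and -1.12 (limma adjusted p = 0.0027, 0.0047 and 0.0041). Calls were lost without ski2-2 B or Col-0 A, C or D for PME3 (adjusted p up to 0.26), without Col-0 D for AT3G32896 (0.055) and without Col-0 A for AT2G01023 (0.1). AT5G38850, a disease resistance gene of the TIR-NBS-LRR class, had authors' means of 115 units in ski2-2 and 292 in Col-0, a difference of -1.37 in the authors' deposited table (bounded adjusted p = 3.8e-18), while of 29 tested members of that class none passed the limma test, 4 being higher and 2 lower without adjustment.

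Of 11 tested pentatricopeptide repeat genes of chromosome 1, which seed secondary siRNAs after microRNA cleavage, the pseudogene AT1G62860 fell (17.5, 26.3, 14.8 and 25.4 units in ski2-2 and 38.2, 38.7, 39.9 and 39.5 in Col-0, log2 fold -0.91 ± 0.23, limma adjusted p = 0.0095, but 0.074 without ski2-2 C). Another 8 genes of this list had means alone and none passed the bound. In the SMXL family, SMXL4, which works in phloem formation, fell (3.08, 2.19, 9.11 and 6.04 units in ski2-2 and 8.95, 15.1, 13.3 and 16.6 in Col-0, log2 fold -1.36 ± 0.40, limma adjusted p = 0.042), and the call ended without ski2-2 A or B or Col-0 B, C or D, at adjusted p up to 0.19. SMXL5 had 18.5 to 28.5 units in ski2-2 and 16.3 to 29.2 in Col-0 (log2 fold 0.18, limma adjusted p = 0.88). Among 10 tested mRNA decay genes the decapping factor VCS rose (log2 fold 1.98, limma adjusted p = 0.012, lost without ski2-2 A, Col-0 B or Col-0 D at up to 0.12), and among 10 tested silencing genes AGO1 rose.

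By kind of gene, 94 of 2303 tested protein-coding members rose and 75 fell. Members that RefSeq labels pseudogenes, 2427 tested, had 8 higher and 8 lower calls and a median log2 fold of 0.02. None of 71 tested mitochondrial genes was called by limma. Of 23 tested members with no RefSeq entry, 1 rose and 1 fell.

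The ski2-2 dcl2-1 double mutant and the dcl2-1 single mutant allow the effect of ski2-2 to be read again in 8 libraries that the comparison with Col-0 did not use, in plants without DCL2. There limma called 22 genes higher (0.194%) and 14 lower (0.123%) of 11346 tested, and 4.14% were higher and 3.13% lower without adjustment. Of the 106 members that rose in ski2-2 against Col-0, 90 could be tested in the absence of DCL2, 59 had the same sign, 7 rose and 1 fell, and their median log2 fold was 0.24 against 1.4 with DCL2. Of the 89 that fell, 85 could be tested, 20 had the same sign, 1 fell and 4 rose, and the median was 0.25 against -1.55. Over all tested genes 52.7% had a log2 fold above 0 there, with a median of 0.035.

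The difference between both pairs was tested as an interaction. It was positive for 25 genes (0.214%) and negative for 57 (0.487%) of 11701 at an adjusted p below 0.05. Of the 105 higher members with this test 13 had a positive interaction, and of the 85 lower members 44 had a negative one. This test uses the libraries that chose the called members, which leans it towards larger folds in the ski2-2 and Col-0 pair.

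**Figure D4:**
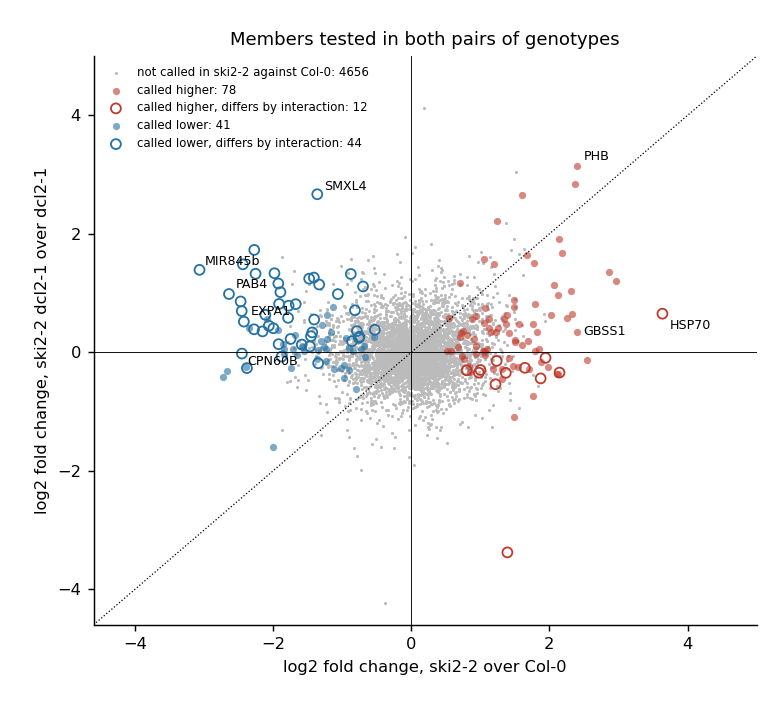
Log2 fold of ski2-2 dcl2-1 over dcl2-1 (vertical) against that of ski2-2 over Col-0 (horizontal) for the 4831 members tested in both pairs, with genes called in ski2-2 against Col-0 in colour and open circles where the interaction passed. MIR845b lies at -3.07 across and 1.39 up, and PHB at 2.40 across and 3.15 up, near the dotted line of equal folds.

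The 7 genes that rose in both pairs were PHB, AGO1, PHO2, CARAB-AK-LYS, CPL1, AT3G51180 and AT5G54940, the first 3 being microRNA targets. PHB rose in ski2-2 dcl2-1 against dcl2-1, with authors' means of 43.8 and 10.7 units (log2 fold 3.15 ± 0.33, limma adjusted p = 1.9e-18). AGO1 had 24 units in ski2-2 dcl2-1 and 8.25 in dcl2-1 (log2 fold 1.58, limma adjusted p = 0.00075), and PHO2 11.3 and 2.55 units (log2 fold 2.23, limma adjusted p = 0.0076). Of the other tested miR166 targets, REV and ATHB8 rose there with log2 folds of 3.04 and 2.92 (limma adjusted p = 1.5e-14 and 2.6e-06), and PHV had 1.69 (limma adjusted p = 0.11). The 4 tested miR166 targets summed to 107 units in ski2-2 dcl2-1 and 30.7 in dcl2-1, and to 29.8 in ski2-2 and 6.55 in Col-0. Over all target lists 5 of 35 tested genes rose in ski2-2 dcl2-1 against dcl2-1 with a median log2 fold of 0.64. Outside the lists, CPL1 rose by 2.14 with DCL2 and 1.91 without it, AT3G51180 by 2.37 and 2.85, and AT5G54940 by 1.6 and 2.65 (limma adjusted p at most 0.031). ABH1, a cap-binding protein gene, fell in both pairs, by log2 folds of -2.0 and -1.59 (limma adjusted p = 0.034 and 0.0035), although the first call was lost without ski2-2 C or Col-0 A, B or C (adjusted p up to 0.3).

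Some of the other higher genes were low in ski2-2 dcl2-1 and in dcl2-1. GBSS1 had authors' means of 1.71 units in ski2-2 dcl2-1 and 0.983 in dcl2-1, CHS of 3.07 and 2.90, and MIPS2 of 1.62 and 0.222. The 16 tested phenylpropanoid and flavonoid genes summed to 25.4 units in ski2-2 dcl2-1 and 18.4 in dcl2-1, against 199 in ski2-2 and 83.3 in Col-0. Of the 6 that could be tested in this pair without DCL2 none was called by limma, with or without adjustment. In other genotypes with dcl2-1 the 16 genes summed to 248 units (ski2-2 dcl4-2 dcl2-1), 84.1 (ein5-1 dcl2-1) and 39.5 (ein5-1 dcl4-2 dcl2-1). Their sum was therefore not low in all genotypes without DCL2. HSP70 had 4.32 units in ski2-2 dcl2-1 and 2.15 in dcl2-1, a log2 fold of 0.65 (limma adjusted p = 0.9), and its interaction was 2.98 (limma adjusted p = 0.0074). The 19 tested heat shock genes summed to 203 units in ski2-2 dcl2-1, 178 in dcl2-1 and 755 in ski2-2 dcl4-2 dcl2-1. In ein5-1 dcl2-1 and ein5-1 dcl4-2 dcl2-1 they summed to 256 and 279 units. LURP1 was different: it had 47.6 units in ski2-2 dcl2-1 and 56.9 in dcl2-1, close to its 55.3 in ski2-2 and far from 17.3 in Col-0, with an interaction of 1.91 (limma adjusted p = 2e-08). MIR156c showed the same order, with 46.8 units in ski2-2 dcl2-1, 51.8 in dcl2-1, 47.4 in ski2-2 and 20.0 in Col-0 (interaction 1.38, limma adjusted p = 0.00059).

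Several of the falls turned round without DCL2. MIR845b had authors' means of 47.0 units in ski2-2 dcl2-1 and 19.9 in dcl2-1, a rise (log2 fold 1.39 ± 0.24, limma adjusted p = 5.5e-06), so that the interaction reached -4.46 (limma adjusted p = 1.3e-27). SMXL4 rose with a log2 fold of 2.67 and GLT1 with 1.24 in ski2-2 dcl2-1 against dcl2-1 (limma adjusted p = 0.00031 and 1.3e-06), with interactions of -4.03 and -2.72. FRO6, a ferric reductase of leaves, fell in ski2-2 against Col-0 by a log2 fold of -1.41 (limma adjusted p = 0.0023, lost without Col-0 A at 0.075) and rose by 1.26 without DCL2 (limma adjusted p = 0.02). In the other direction AT5G36200, an F-box gene, had 17.4 units in ski2-2 and 5.89 in Col-0 (log2 fold 1.39, limma adjusted p = 0.015, lost without ski2-2 A, C or D or Col-0 B or D at up to 0.15) but 2.64 in ski2-2 dcl2-1 and 34.7 in dcl2-1 (log2 fold -3.38, limma adjusted p = 5.9e-17). The ribosomal protein group had a median log2 fold of 0.19 in ski2-2 dcl2-1 against dcl2-1 over 120 tested genes, with none called and 8 higher without adjustment, and the photosystem group one of 0.13 over 27 genes.

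Against its own double mutant, ski2-2 shares its 4 libraries with the comparison above, so values are given side by side only. The ski2-2 dcl2-1 plants had 375 genes higher (3.15%) and 438 lower (3.68%) than ski2-2 of 11889 tested. With values scaled to microRNA loci the split became 78 higher and 1878 lower. That scale came only from 148 loci with recovered libraries, without the microRNA loci of highest level. The 39 tested microRNA loci summed to 1695 units in ski2-2 dcl2-1 and 925 in ski2-2, beside 1754 in dcl2-1 and 875 in Col-0.

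**Figure D5:**
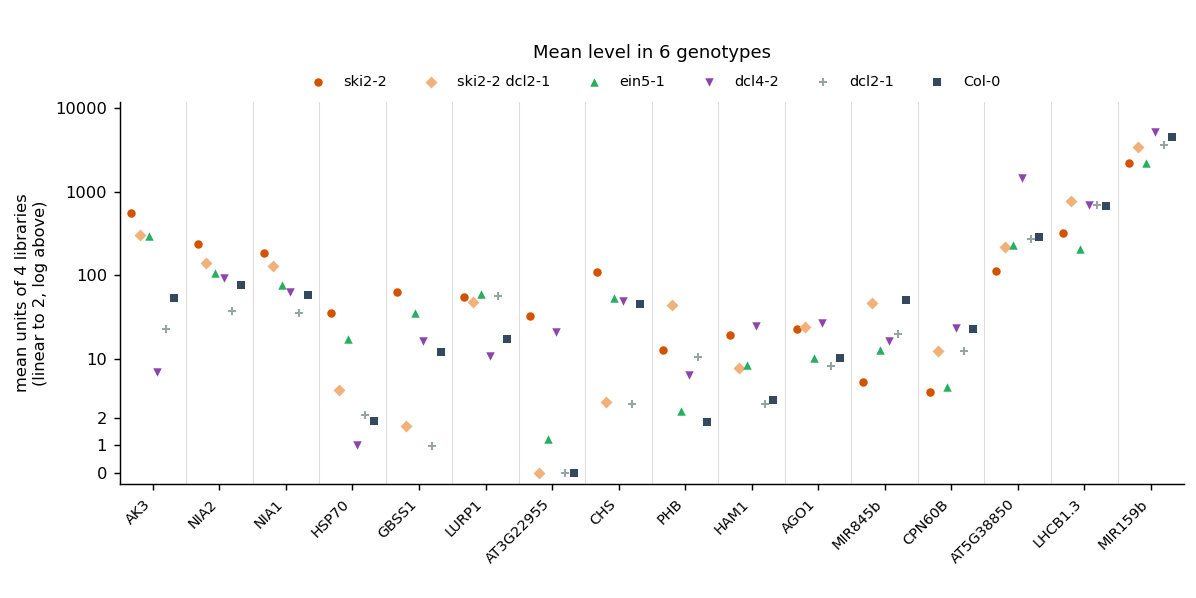
Authors' mean units (linear to 2, log scale above) of 16 genes in 6 genotypes, left to right ski2-2, its double mutant with dcl2-1, then ein5-1, dcl4-2, dcl2-1 and finally Col-0. GBSS1, CHS and AT3G22955 are low or at 0 in ski2-2 dcl2-1 and dcl2-1, AK3 is high in ski2-2, ski2-2 dcl2-1 and ein5-1, and CPN60B, LHCB1.3 and MIR159b are low in both ski2-2 and ein5-1.

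The ein5-1 mutant, which lacks decay from the 5′ end, differed from ski2-2 at 332 genes that were higher (2.72%) and 696 that were lower (5.71%) in ski2-2 of 12198 tested. The ein5-1 libraries were deeper, with 159841 to 184958 recovered reads, against 81739 to 93554 in ski2-2. The part of depth in these counts was not tested. This contrast also uses the ski2-2 libraries, and the means are set beside each other without further reading. HSP70 averaged 36 units in ski2-2, 17.2 in ein5-1 and 1.89 in Col-0, and GBSS1 64.2, 35.9 and 12.1 units. MIR845b averaged 5.29 units in ski2-2, 12.9 in ein5-1 and 50.5 in Col-0, and CPN60B 4.09, 4.62 and 23.0 units. Some genes were far apart in both mutants, with ELP at 5.63 units in ski2-2, 39.0 in ein5-1 and 22.4 in Col-0, and GAMMA-VPE at 48.5, 14.6 and 14.1 units. The ribosomal protein group summed to 696 units in ski2-2, 521 in ein5-1 and 1194 in Col-0, and the heat shock group to 455, 295 and 266 units.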

How the data were processed

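The authors deposited 1 table for all libraries, with the mean of 22-nt reads per gene in each of 15 genotypes, headed TPM per the file headers, and treated here as a scaled signal because the columns do not add up as TPM would. The deposited table also holds log2 folds, p-values and adjusted p-values of 8 comparisons, made with DESeq2 per the submitters' processing notes, and ski2-2 against Col-0 is not one of them. The submitters' processing notes name Bowtie 1.2.2, SAMtools 1.9 and the build TAIR10. How reads with several matches or on either strand were counted is not given in the sources used here, so close copies and overlapping genes are uncertain. RNA was prepared with a miRNeasy kit and a NEBNext small RNA kit, per the labels' protocols.

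A genotype's mean adds up whole reads, each times the step of its library, so reads per library could be recovered, within 0.6 of the last printed digit. This held for 99.5% of genes in ski2-2 and in Col-0, up to means of about 100 units. It held for 99.51% of genes in ski2-2 dcl2-1, with gaps from a mean of 70.1 units, for 98.96% in ein5-1, with gaps from 27.5 units, and for 99.6% in dcl2-1. Libraries are called A to D by the size of their step and are not tied to replicate numbers. As planned for values recovered from means, limma 3.58.1 in R 4.3.3 was run with an intensity trend on log2(units + 1), pseudocount 1, for genes averaging 1 unit or more in the compared libraries, with Benjamini-Hochberg adjustment. No count test was run on the recovered reads, which leave out the genes of highest level. A fold on this scale understates the change of low genes. The series' design text calls the libraries of a genotype biological replicates, without saying how plants were pooled. Between libraries of a genotype the counts differed by more than sampling noise, with a chi-square per gene of 1.44 to 1.63 in ski2-2 and 1.33 to 1.42 in Col-0. Data were also simulated for ski2-2 against Col-0, with 11793 genes in the fit. There limma found 34.69% of the genes set 2-fold higher and 100% of those set 4-fold higher. For genes set lower it found 20% at 2-fold and 69.39% at 4-fold. Among 11605 genes left unchanged it called 2. These rates hold for the simulated levels and spread only. They do not check the real calls, since 76 of the 83 called genes named here lost their call without the intensity trend. Some real folds below 2 were called, such as PSAO at a log2 fold of -0.88. For 2-fold changes like those simulated, a missing call says little.

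Genes and lists were chosen with earlier results of these data known. The rule for named genes takes the 15 higher and 15 lower tested members with the largest difference in mean among calls with a log2 fold of 1 or more in size and no overlap of libraries, the 10 higher and 10 lower members without recovered libraries with the largest fold, the 5 highest means and the list genes. The text names a part of these, and others chosen after their values were seen. Among those are HSP90.1, Hsp81.4, MIPS2, CRF2, CPL1, SQP1, TCP14, LHY, CAT3 and AT4G39260. The enzyme lists, the groups by RefSeq product and the genes called in both pairs of genotypes were also chosen in this way. The 23 lists hold 224 genes, of which 216 are in the table, and 31722 of 32420 IDs matched RefSeq on TAIR10.1. Trans-acting siRNA loci were not analysed here. Coordinates are not printed, since the build of the names differs from that of the reads.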

Additional observations from a re-analysis of the deposited data

Results flagged for a closer look

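In 2 of 139 groups of 4 library values of a named gene, 1 library stood far from the other 3, where chance gives about 1 in 20. MIPS1 in Col-0 had 33.0 units in library B and 24.4 to 25.6 in the other 3, and that gap is 0.86 of the range. ABH1 in Col-0 had 12.2 units in library A and 4.16 to 5.12 in the other 3, a gap of 0.88 of the range.

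The log2 fold of ski2-2 over Col-0 differed from that of ski2-2 dcl2-1 over dcl2-1 (limma interaction, adjusted p below 0.05) for 27 of 85 genes named in the text that have this test, 8 in the positive and 19 in the negative direction. Their choice used the libraries of ski2-2 and Col-0. The positive differences were 5.07 for AT3G22955, 4.77 for AT5G36200, 2.98 for HSP70, 2.31 for ACD6, 1.91 for LURP1, 1.76 for AT2G45380, 1.38 for MIR156c and 1.3 for AT1G31163. AT3G22955 had reads in ski2-2 alone of these 4 genotypes. The negative differences were deepest at MIR845b (-4.46), SMXL4 (-4.03), SMXL5 (-3.94) and PAB4 (-3.62). SMXL5 rose in ski2-2 dcl2-1 against dcl2-1, with authors' means of 42.0 and 8.15 units and a log2 fold of 4.13 (limma adjusted p = 1.7e-23). EXPA1 (-2.94), FBA5 (-2.91), GLT1 (-2.72), FRO6 (-2.67), AT4G01310 (-2.66), HEMC (-2.51), CPN60B (-2.43), ELP (-2.40), AT4G39260 (-2.06) and PORB (-1.97) followed. The remaining negative differences were those of CPN60A (-1.72), RBP31 (-1.57), AT2G45180 (-1.16), PSAH2 (-1.01) and PSBX (-1.0).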

How the results depend on the processing

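No paired analysis was possible because the recovered libraries A to D are not tied to replicate numbers. No named gene changed direction under the alternatives run. Of 83 called genes named here, 49 kept their call without each library in turn. With a pseudocount of 0.1, 26 of them lost it, and without the intensity trend 76 did. In ski2-2 against Col-0, 107 genes were higher and 93 lower, with 61 and 48 at a pseudocount of 0.1, 66 higher with microRNA scaling, and 5 and 4 without the trend. Of members, 106 rose and 89 fell, with 61 and 48 at that pseudocount, 66 higher with microRNA scaling, and 5 and 3 without the trend. For ski2-2 dcl2-1 against ski2-2, 375 higher and 438 lower genes became 193 and 266 with that pseudocount, 78 and 1878 with microRNA scaling, and 110 and 123 without the trend. For ski2-2 against ein5-1, 332 higher genes became 159 with microRNA scaling and 92 without the trend, and 696 lower genes became 386 at a mean of at least 5 units. For ski2-2 dcl2-1 against dcl2-1, 22 higher and 14 lower genes became 10 and 8 with that pseudocount and 1 and 2 without the trend, and the lower ones 8 with all recovered genotypes in 1 fit. The cause of these shifts was not tested.

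Leaving out 1 library gave 79 to 96 higher and 55 to 100 lower genes, and 78 to 95 higher and 54 to 98 lower members, in ski2-2 against Col-0. It gave 247 to 322 and 315 to 369 genes in ski2-2 dcl2-1 against ski2-2, 212 to 333 and 455 to 703 in ski2-2 against ein5-1, and 11 to 25 and 7 to 19 in ski2-2 dcl2-1 against dcl2-1. At about 1 unit per read, genes near 5 units rest on few reads, and most simulated 2-fold changes were not called.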

Other observations

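Further genes outside the groups above stood fully apart between the genotypes, chosen here after their values were seen. CRF2, a cytokinin response factor, had 9.24, 13.1, 9.11 and 20.5 units in ski2-2 and 0.813, 0, 2.05 and 1.04 in Col-0 (log2 fold 2.86 ± 0.51, limma adjusted p = 1e-05), and its authors' mean was 62.5 units in ein5-1. TCP14, a growth regulator, had 6.16, 9.84, 9.11 and 7.24 units in ski2-2 and 0.813, 0, 2.05 and 0 in Col-0 (log2 fold 2.55 ± 0.56, limma adjusted p = 0.0011), with a mean of 35.9 units in ein5-1. SQP1, a squalene epoxidase-like gene, had 21.7 to 33.9 units in ski2-2 and 2.83 to 8.13 in Col-0 (log2 fold 2.33, limma adjusted p = 1.8e-08). The expansin gene EXPA8 had no read in ski2-2 and 5.69, 3.77, 6.14 and 6.23 units in Col-0, so it was at least 6.52-fold lower in ski2-2 against 3 reads over the group (limma adjusted p = 0.0025). EXPA1, another expansin, had 0 to 1.21 units in ski2-2 and 5.12 to 8.49 in Col-0 (log2 fold -2.42, limma adjusted p = 0.0036). PAB4, a poly(A)-binding protein gene, had 0, 0, 0 and 1.21 units in ski2-2 and 7.32, 6.60, 9.22 and 4.16 in Col-0 (log2 fold -2.64, limma adjusted p = 0.0017). Of 13 tested aquaporin genes, PIP2A and GAMMA-TIP rose, with log2 folds of 0.72 and 0.88 (limma adjusted p = 0.0013 and 0.029). Both lost their call with microRNA scaling, and GAMMA-TIP also without ski2-2 A or C or Col-0 C (adjusted p up to 0.47).

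A few genes whose mRNA follows the day were also among the called ones. They were picked after their values were seen, and no full set of clock genes was counted. LHY, a morning gene of the clock, had 19.5, 14.2, 10.3 and 15.7 units in ski2-2 and 2.44, 6.60, 4.1 and 4.16 in Col-0 (log2 fold 1.6 ± 0.40, limma adjusted p = 0.006, up to 0.065 without ski2-2 A or Col-0 A). CCA1, its partner, had 4.38 to 10.9 units in ski2-2 and 3.25 to 7.17 in Col-0 (limma adjusted p = 0.81). CAT3, an evening-phased catalase, had 25.7, 31.7, 34.2 and 27.8 units in ski2-2 and 54.5, 55.6, 70.7 and 60.3 in Col-0 (log2 fold -0.99 ± 0.19, limma adjusted p = 9.4e-05). AT4G39260, a cold- and clock-regulated RNA-binding protein gene, had 0 to 4.38 units in ski2-2 and 5.12 to 11.4 in Col-0 (log2 fold -1.92, limma adjusted p = 0.024, up to 0.2 without ski2-2 A or Col-0 A or D). For some others the authors deposited log2 folds of ski2-2 dcl4-2 over Col-0 and over ski2-2. These were 2.18 and 0.894 for GI, 3.87 and 2.93 for GRP7, and 0.601 and 0.967 for TOC1. They were 0.934 and 0.344 for PRR7, 1.74 and 0.372 for PRR9, 0.763 and 0.726 for PRR5, and 2.31 and 2.26 for ELF4. The first fold was the larger for each but TOC1. The deposited DESeq2 p-values were 0.025 or more, except for GRP7 (2.3e-12 and 8.4e-10), and were 0.64 and 0.45 for TOC1. They do not test ski2-2 against Col-0, so no direction in ski2-2 is drawn for these genes. The hour of harvest is not given in the sources used here, and its part in these results was not tested.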
